A study of Mus musculus with 24 samples.

Results

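Besides the annotated mouse genes, the deposited read counts of these mouse retinal organoids (MROs) list 79999 loci that the authors assembled from the sequencing reads themselves and that carry no gene name, only a number after the prefix XLOC. The loci described here are the 29390 of them with a mean raw count of at least 10 and below 100 over the 24 libraries. They were chosen by that measured level. They made up 23.2% of the 126602 counted features and 36.7% of the assembled loci. Individual MROs were derived from wildtype E14Tg2a mouse embryonic stem cells, the control genotype of the labels, received only the solvent water, and were sampled whole at D20, D22, D25 and D30 of differentiation, with 6 MROs per timepoint from 1 independent experiment. Every group thus came from the same cell line and the same differentiation, and p-values measure the spread between MROs of that experiment only. Total RNA was depleted of ribosomal RNA before strand-specific libraries were made, so RNA without a poly(A) tail and unspliced RNA could be counted.

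Assembling transcripts from reads joins overlapping alignments into candidate exons without asking whether a gene is known at that place. Loci found in this way include unannotated long noncoding RNAs, RNAs made from enhancers, extended ends of known genes and pieces of introns of unspliced transcripts. Here the authors kept assembled transcripts that lay wholly inside an intron of a known gene, between genes, or opposite an exon of a known gene. In the paper's account of these MROs, the interval from D20 to D30 covers the end of cell birth, when progenitors divide for the last time. It also covers maturation of photoreceptors and interneurons. The files pair these loci with neither coordinates nor gene names, so which kind each locus belongs to is not known here, and no sequence of them is shown.

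Counts on these loci were low and their number large. The lower quartile, median and upper quartile of the mean raw count were 13.9, 20.4 and 33.8 reads, and 69.9% of the loci lay below 30. The members next to the bounds had means of 10 and 99.96 reads, and the nearest assembled loci outside had means of 9.96 and 100. The upper bound on the mean count keeps each locus a small part of the sum, and the largest held 0.0124% of all reads on the class. A count was present in every one of the 24 MROs for 20567 loci (69.98%), compared with 78.7% of the 5382 annotated genes in the same range of mean count. The 2 classes were not matched for count within that range. Of those later tested, 13495 of 28572 loci and 1506 of 5305 annotated genes had a mean below 20 reads. In all, 31 loci had no count in any MRO of some timepoint. None had more than 50% of its summed level in 1 MRO, and 39 had more than 25%.

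Libraries held 13634846 to 19477108 counted reads. Every pair of MROs of 1 timepoint differed over these loci by more than the sampling noise, the smallest chi-square of 60 pairs being 2.79 per degree of freedom, so each library was counted as its own sample. D30 replicate 6 stood apart from the rest. In D30 replicate 6 the class took 5.89% of counted reads, compared with 3.997% to 4.89% in the other 5 D30 MROs, and the assembled loci below a mean of 10 reads took 2.31%, compared with 1.003% to 1.34%. The same library gave the highest level among the D30 MROs for 9694 of the loci (33.0%), where the other 5 gave it for 11.02% to 15.4%. The Müller glia list (Rlbp1, Glul, Slc1a3, Apoe, Vim) summed to 1223 CPM (reads scaled to a common library size) in that MRO, the lowest of the D30 MROs. The endothelium list (Pecam1, Cdh5, Kdr) summed to 206 CPM, with 185 CPM in the highest of the others, and the pluripotency list (Nanog, Pou5f1, Zfp42) to 0.998 CPM, with 0.171 CPM. The endothelium sum was below that of every D20 and D22 MRO, the lowest of which had 255 and 222 CPM. The pluripotency sum lay within the range at D20 (0.256 to 1.51 CPM) and at D22 (0.274 to 1.96 CPM). The pigment epithelium list (Rpe65, Ttr, Tyr, Mitf) summed to 2482 CPM, within the range of the other D30 MROs. The share of the class, the numbers of called loci and the median log2 fold changes at D30 are therefore given with and without replicate 6. Most other values that rest on D30 include it. The part of these lists in the difference was not tested.

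The class took a smaller share of the reads at D25 than at D22. Its share of counted reads averaged 5.29% ± 0.275 (SD, n = 6) at D20 and 5.53% ± 0.292 at D22, then 4.92% ± 0.187 at D25 and 4.65% ± 0.726 at D30. The lowest, median and highest MRO had 4.998%, 5.23% and 5.79% on D20 and 5.16%, 5.57% and 5.97% on D22, followed by 4.63%, 4.96% and 5.10% on D25 and 3.997%, 4.50% and 5.89% on D30. All D22 MROs thus lay above all D25 MROs, whereas D20 overlapped with D22, and D30 overlapped with every earlier timepoint through replicate 6 alone in the case of D20 and D22. Without replicate 6 the D30 mean was 4.40% ± 0.447 (n = 5), and all 5 remaining MROs lay below the lowest D20 MRO. Relative to the timepoint before, the mean share changed by 4.47% at D22, by -11.1% at D25 and by -5.43% at D30. Relative to D20, it changed by -12.2% at D30. Without replicate 6 these D30 values became -10.5% and -16.8%, and without D30 replicate 5 the first of them was -2.78%. The change at D22 was 2.82% without D22 replicate 1. Per read of the library, with unassigned reads included but reads placed at several positions left out, the 4 changes were 2.67%, -5.31%, -0.512% and -3.28%. Reads that fell outside all counted features moved in the same order, at 41.8%, 42.8%, 40.4% and 38.3% of all reads not placed at several positions, and their part in the change of the share was not tested. No p is given for these sums, because the loci were chosen by their level.

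**Figure D1:**
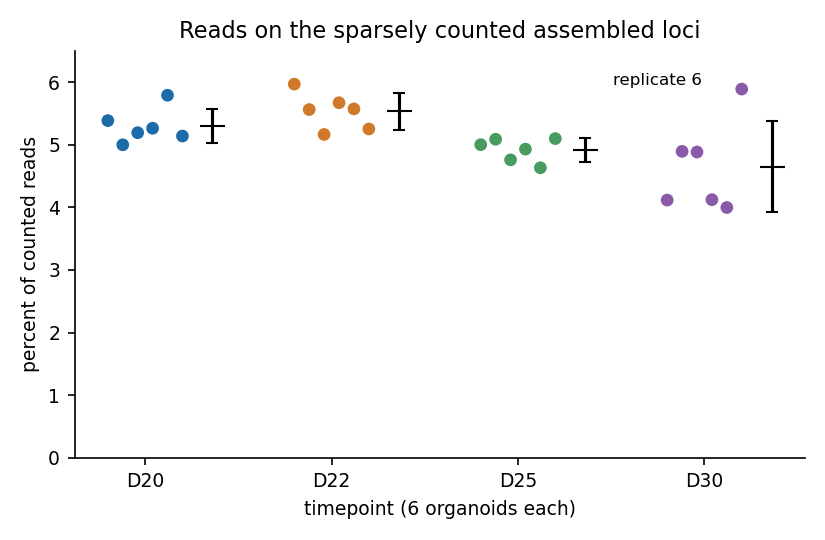
Percent of counted reads that fell on the 29390 sparsely counted assembled loci (y axis) in each MRO (points, replicate 1 to 6 from left to right) at D20, D22, D25 and D30, with the mean and SD of 6 MROs as black marks. The D22 points all lie above the D25 points, and D30 replicate 6 lies at 5.89%, above the other D30 MROs at 3.997% to 4.89%.

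The other classes given here had a higher mean share at D30 than at D20, unlike the sparse loci. The 2123 assembled loci with a mean of 100 reads or more took 7.40% ± 0.508 of counted reads at D20 and 8.28% ± 0.652 at D22, followed by 8.12% ± 0.742 at D25 and 9.68% ± 1.16 at D30. The sparse loci therefore made up 38.3%, 37.0%, 34.7% and 29.6% of all reads on assembled loci at the successive timepoints. Annotated genes in the same range of mean count took 1.36% ± 0.0512 at D20 and 1.22% ± 0.0251 at D22, followed by 1.31% ± 0.0449 at D25 and 1.55% ± 0.130 at D30. At D22 and D25 the mean of the well counted assembled loci moved in the same direction as that of the sparse loci. The mean of these annotated genes moved in the opposite direction. All these shares are parts of 1 total and are given as descriptions.

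Few of the loci lacked a count in any given MRO, but the number varied widely between MROs of the same timepoint. Between 25 and 2332 loci were at 0 per library. The lowest, median and highest MRO had 372, 927 and 2332 such loci on D20 and 320, 675 and 2085 on D22, followed by 25, 103 and 621 on D25 and 108, 172.5 and 1212 on D30. More than 1000 loci were at 0 in 6 libraries, namely D20 replicates 1, 5 and 6, D22 replicates 2 and 5 and D30 replicate 4. If the other 5 MROs of the timepoint set the level of each locus and reads fell at random, 6.6 to 219.5 loci would be at 0 in a library. The observed number exceeded that expectation 1.69-fold to 54.9-fold, and for annotated genes of the same range the excess was 1.01-fold to 15.5-fold. The expectation holds counting error only and leaves out the spread between MROs, so an excess carries no test.

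**Figure D2:**
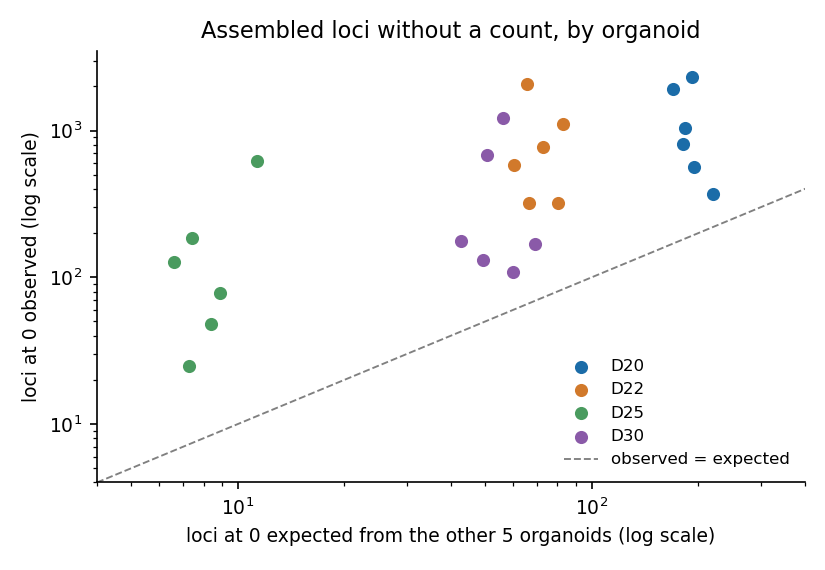
Number of the 29390 loci without a count in each MRO (y axis, log scale) against the number expected if reads fell at random around the level in the other 5 MROs of the timepoint (x axis, log scale), coloured by timepoint. All 24 points lie above the dashed line of equality, by 1.69-fold to 54.9-fold.

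At equal depth, obtained by thinning every library to 13634846 reads, 28182 ± 771 loci (SD, n = 6) had a count on D20 and 28492 ± 658 on D22, followed by 29172 ± 225 on D25 and 28890 ± 474 on D30. The 6 MROs spanned 27058 to 28986 loci on D20 and 27290 to 29036 on D22, then 28740 to 29344 on D25 and 28070 to 29231 on D30, so that neighbouring timepoints overlapped.

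Of the 29390 loci, 28572 passed the filter on a base mean of 10 after normalization and entered edgeR's quasi-likelihood test, and 818 were not tested. From D20 to D30, 2064 of the tested loci (7.22%) were higher and 2686 (9.40%) lower at an adjusted p below 0.01. Over all 46949 tested features, 13.9% were higher and 13.0% lower in this comparison, so both shares of the sparse loci lay below the background. Complete separation of the 6 and 6 MROs was also less frequent, with 1526 loci (5.34%) higher and 1813 (6.35%) lower against 9.60% and 9.34% of all tested features. The called loci moved by a median log2 fold change of 2.34 among those that rose and -1.74 among those that fell, and the smallest change called was 0.65 in size. The median log2 fold change over all tested sparse loci was -0.13, beside -0.04 over all tested features. Without D30 replicate 6, 1806 loci were higher and 2757 lower, and the median was -0.21. Without the 6 libraries with over 1000 loci at 0, 1540 were higher and 1605 lower.

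Of the tested loci, 186 (0.651%) were higher at D22 and 7 (0.0245%) lower, against a background of 1.62% higher and 0.285% lower, and the median log2 fold change was 0.10, beside 0.02 over all tested features. This count rested on particular libraries. It was 100 without D20 replicate 1, 122 without D20 replicate 3, 115 without D22 replicate 2 and 86 without D22 replicate 3. Without the 6 libraries with over 1000 loci at 0, which left 3 MROs at D20 and 4 at D22, edgeR called 8 loci higher and 0 lower, with 2178 higher and 604 lower at an unadjusted p below 0.05. DESeq2, a second count test, called 448 higher and 42 lower with all libraries, and edgeR fitted to D20 and D22 alone called 44 higher and 9 lower. On simulated counts in which only D30 was changed, falls were recovered less often than rises of the same fold. The simulated rises also ended with higher mean counts than the falls, and D22 and D25 were left unchanged. The simulation therefore cannot show whether counts in the 2 directions are on an equal footing here or in the other comparisons.

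From D22 to D25, 211 of the tested loci (0.738%) were higher and 315 (1.10%) lower, against a background of 3.08% and 2.19%. The median log2 fold change was -0.16, beside -0.05 over all tested features. Rises made up 40.1% of these calls, and 28.2% where the normalization was taken from annotated genes only. The excess of falls was not present without the 6 libraries with over 1000 loci at 0, with 227 higher and 226 lower, and was small without the filter on low counts, with 257 and 260. Well counted annotated genes went the other way in this step, with 1034 higher and 432 lower among 10948 tested. Annotated genes in the same range of mean count did so too, with 157 higher and 42 lower. The well counted assembled loci had more falls than rises, with 46 higher and 241 lower among 2123 tested. An excess of falls was thus not particular to the sparse loci. The well counted assembled loci had 158 higher and 3 lower for D22 against D20, and 23 higher and 130 lower for D30 against D25. Leaving out D22 replicate 1, D25 replicate 1 or D25 replicate 4 lowered both counts, to 131, 119 and 129 rises and to 179, 209 and 177 falls. D22 replicate 6 lowered the rises to 116, and D25 replicate 6 the falls to 207.

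From D25 to D30, 65 loci (0.227%) were higher and 230 (0.805%) lower, against a background of 1.76% and 1.75%. This balance turned when only D25 and D30 were fitted, with 184 higher and 176 lower. The median log2 fold change was -0.06, beside -0.02 over all tested features, and became -0.13 beside -0.04 without D30 replicate 6. Without that library 56 loci were higher and 292 lower. The count of rises fell to 36, 42, 33 and 39 without D25 replicates 3, 4, 5 and 6 and to 42 without D30 replicate 3. The 6 libraries with over 1000 loci at 0 also mattered, with 108 rises without them.

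**Figure D3:**
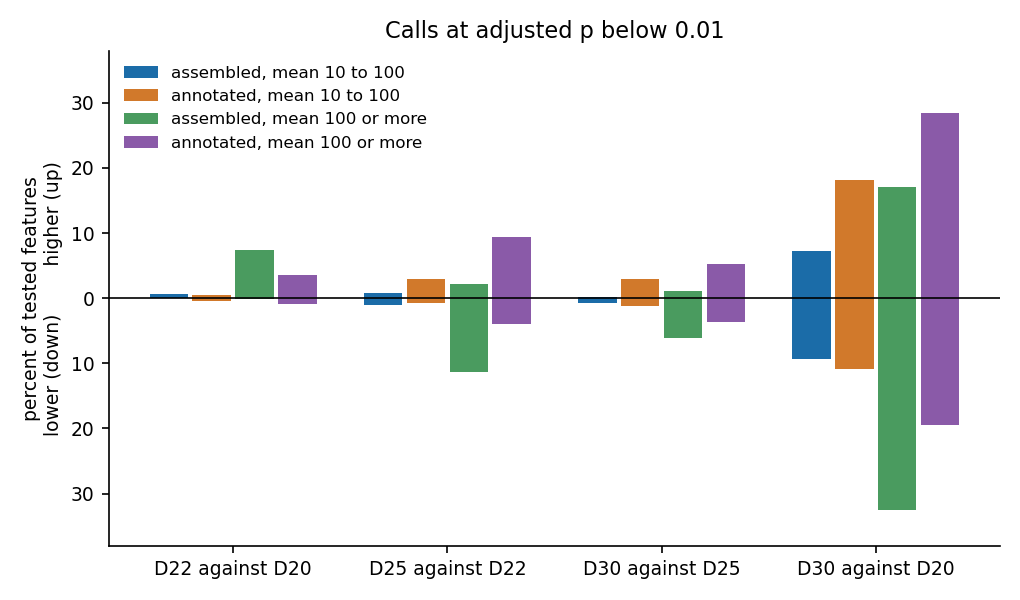
Percent of tested features called higher (bars upward from 0) and lower (bars downward) at an adjusted p below 0.01 by edgeR in 4 comparisons, for assembled loci and annotated genes with a mean raw count of 10 to 100 and of 100 or more. The sparse assembled loci reach 7.22% higher and 9.40% lower for D30 against D20 and at most 1.10% at a step between neighbouring timepoints.

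At any step between neighbouring timepoints, 938 of the tested loci (3.28%) were called, against 8.81% of all tested features, and 74 were called at more than 1 step. Of these, 10 went opposite ways at different steps. Across all 4 timepoints together, 4470 loci (15.6%) differed at an adjusted p below 0.01, against 27.2% of all tested features. These 4470 loci had their highest mean at D20 in 1684 cases and at D30 in 1556, and at D22 and D25 in 948 and 282. Their lowest mean lay at D30 for 2270 and at D20 for 1528. Annotated genes of the same range called in this way had their highest mean at D30 in 63.1%, compared with 34.8% of the sparse loci. For D22 the shares were 6.53% and 21.2%. Of the 1169 well counted assembled loci called in this way, 19.8% had their highest mean at D30 and 29.9% at D22. For well counted annotated genes these shares were 52.5% and 6.86%. A frequent highest mean at D22 was thus not particular to the sparse loci.

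How often a locus was called depended on its counts. For D30 against D20, calls covered 9.81% of the loci with a mean below 20 reads, 17.9% from 20 to below 40, 28.8% from 40 to below 70 and 36.2% from 70 to below 100. Annotated genes rose over the same bins from 18.9% to 27.8%, 34.9% and 38.6%. Annotated genes were thus called more often in every bin, and the gap was smallest in the highest one. The median biological coefficient of variation was close in both classes, at 0.584 and 0.572 in the lowest bin and 0.289 and 0.295 in the highest.

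On the log2 scale, the changes from D20 to D30 were divided among the 3 steps as follows. For the 2064 loci that were higher at D30 than at D20, the largest part of the log2 change lay between D20 and D22 for 993, between D22 and D25 for 711 and between D25 and D30 for 360. For the 2686 that were lower, it lay between D20 and D22 for 319, between D22 and D25 for 1331 and between D25 and D30 for 1036. The same sign held at all 3 steps for 1445 of the rising and 1769 of the falling loci. The summed level of the rising loci was 1691 ± 164 CPM (SD, n = 6) on D20 and 3007 ± 514 on D22, then 4951 ± 536 on D25 and 7410 ± 835 on D30. The falling loci summed to 10743 ± 843, 9016 ± 962, 5299 ± 312 and 3425 ± 296 CPM. On this linear scale the rising loci gained most CPM between D25 and D30, unlike the count of loci on the log2 scale. The 3 steps differ in length, D20 to D22 being the shortest and D25 to D30 the longest. Neither the tallies nor the sums are given per day. The tallies and both sums are descriptions, since the loci were chosen by the difference between D30 and D20. As these are whole MROs, fewer cells of a type and less RNA per cell cannot be told apart.

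Among annotated genes with a mean of at least 100 reads, the log2 level of the summed rising loci was most like that of 3 genes over the 24 MROs. These were Mpp4 (Pearson r = 0.989, chr1:59120935-59163389, minus strand, GRCm38), a scaffold protein of photoreceptor synapses, Wdr17 (r = 0.988), a gene with WD repeats, and Cerkl (r = 0.987), a ceramide kinase-like gene mutated in retinal degeneration. Mpp4 itself went from 34.8 ± 6.55 CPM at D20 to 403 ± 78.0 at D30, a log2 fold change of 3.53 ± 0.16 (SE, edgeR adjusted p = 2.73e-16). The summed falling loci were most like Mybl1 (r = 0.984, chr1:9667415-9700209, minus strand), a Myb family transcription factor, the long noncoding RNA Gm10419 (r = 0.981) and Ezh2 (r = 0.980), the methyltransferase of Polycomb complex PRC2. Mybl1 went from 397 ± 56.5 to 37.7 ± 5.001 CPM (log2 fold change -3.40 ± 0.15, edgeR adjusted p = 2.73e-16). These genes were picked by likeness to loci chosen for their change from D20 to D30, so their p-values carry no separate support. All profiles share the same libraries and follow time, and within timepoints the correlations with these sums were lower, from 0.372 for Ezh2 to 0.856 for Cerkl.

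Müller glia and amacrine markers of the labelled tissue were present and moved over the same interval. For D30 against D20, 4 of the 5 Müller glia markers and 2 of the 5 amacrine markers (Gad1, Gad2, Tfap2b, Slc6a9, Calb2) were higher, and no gene of these 2 lists was lower. Of lists for cells outside the neural retina, the pigment epithelium list had 3 of 4 genes tested and 2 higher. Its summed level spanned 9.41 to 39.0 CPM at D20 and 34.7 to 2666 CPM at D30. Of the muscle list (Myh3, Mylpf, Acta1, Myog) 2 of 4 genes were tested, and 2 were lower. Of the endothelium list 2 of 3 were tested, with 1 higher and 1 lower. Of the pluripotency list 1 of 3 was tested, and it was lower. The microglia list (Cx3cr1, Aif1, Csf1r) summed to at most 1.24 CPM in any MRO and none of its genes was tested. The part of these lists in the changes of the assembled loci was not tested.

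The number in a locus name carried information on its time course, although the sources used here do not state what the order of the numbers stands for. Among 12271 pairs of sparse loci with consecutive numbers, the median Pearson correlation of the 4 timepoint means was 0.70. It was 0.54 at a difference of 10, 0.21 at 100 and 0.03 at 1000. The correlation within timepoints, which does not use the time course, went from 0.142 for consecutive numbers to 0.0206 at a difference of 1000. These medians describe pairs that share libraries and carry no test.

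**Figure D4:**
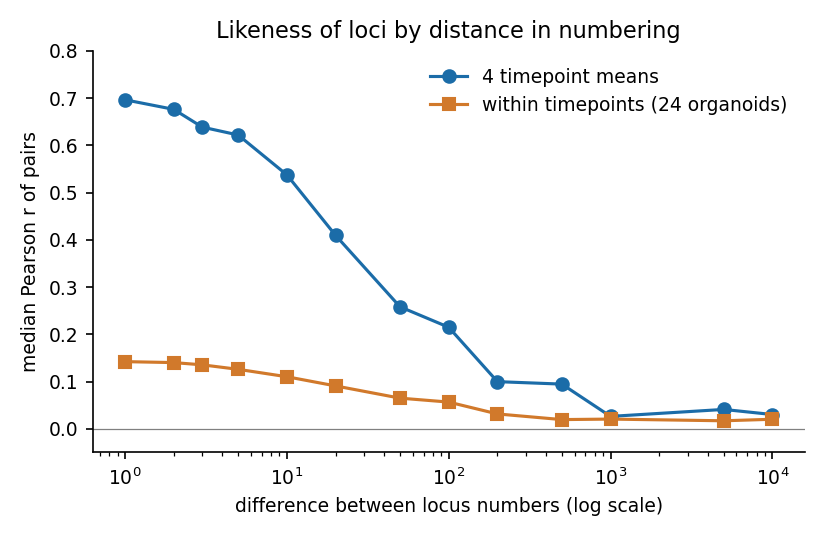
Median Pearson correlation between pairs of sparse assembled loci (y axis) against the difference between their numbers (x axis, log scale), for the 4 timepoint means (circles) and for deviations within timepoints over 24 MROs (squares). The circles go from 0.70 at a difference of 1 to 0.03 at 1000, and the squares from 0.142 to 0.0206.

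Calls followed the numbers too. A rising locus whose next number was also a tested sparse locus had a rising partner in 519 of 844 cases (61.5%) for D30 against D20, where 7.22% of all tested sparse loci rose. A falling locus had a falling partner in 539 of 1159 cases (46.5%), where 9.40% fell. Partners with the opposite call numbered 3 and 4. At a difference of 1000 the shares were 5.62% and 9.56%. The number of called loci is therefore not a number of independent changes. Whether neighbours in number are parts of 1 transcript could not be read from the files.

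Runs of called loci were then collected, a step chosen after the values had been seen and given as a description. A run was taken as at least 4 loci called the same way with number gaps of at most 5. There were 90 rising runs with 685 loci, which is 33.2% of the rising loci, and 87 falling runs with 523 loci, which is 19.5% of the falling loci. No called neighbour was found for 818 rising and 1398 falling loci. The longest rising runs held 52, 31 and 30 loci, and the longest falling runs 18, 15 and 13.

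The 52 loci of the longest rising run had log2 fold changes from 3.09 to 8.24 for D30 against D20 with a median of 4.55. Their summed level in the lowest, median and highest MRO was 3.36, 5.96 and 19.0 CPM on D20 and 10.2, 14.4 and 42.8 CPM on D22, then 76.0, 108 and 203 CPM on D25 and 135, 193 and 262 CPM on D30. In the median D20 MRO this sum leaves fewer than 3 reads per locus on average, so the sizes of the fold changes rest on few reads. D20 and D22 overlapped, all D25 MROs lay above both, and D25 and D30 overlapped. The annotated genes most like this sum were Snap91 (r = 0.980), a clathrin adaptor of synaptic vesicle recycling, Adcy1 (r = 0.978), an adenylate cyclase of neurons, and Scamp1 (r = 0.977), a membrane protein of secretory vesicles.

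The runs of 31 and 30 loci followed a like course. The run of 31 went from 4.61 ± 1.82 CPM (SD, n = 6) on D20 to 16.1 ± 14.1 on D22, then to 70.5 ± 14.8 on D25 and 119 ± 30.2 on D30, and was most like March1 (r = 0.985), a membrane-bound ubiquitin ligase. The run of 30 went from 5.10 ± 2.202 to 22.0 ± 12.4, 69.9 ± 14.8 and 125 ± 31.4 CPM. It was most like Cacnb2 (r = 0.989), a calcium channel subunit used at photoreceptor synapses, and Rp1 (r = 0.987), a microtubule protein of the photoreceptor outer segment.

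The longest falling run, of 18 loci, went from 61.4 ± 21.999 CPM on D20 to 32.6 ± 17.6 on D22, then to 9.34 ± 1.21 on D25 and 6.02 ± 0.885 on D30, and its lowest D22 MRO at 11.6 CPM lay above its highest D25 MRO at 11.02 CPM. It was most like Rpl5 (r = 0.975), a ribosomal protein gene, Dll1 (r = 0.974), a Notch ligand of newborn neurons, and Rbpj (r = 0.966), the DNA-binding partner of activated Notch. The run of 15 went from 94.2 ± 20.8 to 22.1 ± 5.24 CPM between D20 and D30, and was most like Zc3h12c (r = 0.955). The run of 13 was at 40.2 ± 5.79 CPM at D20 and 36.4 ± 7.51 at D22, and at 13.0 ± 1.75 at D25 and 4.73 ± 2.86 at D30, with Gm10419 again the gene most like it (r = 0.969).

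The loci described next are the pair with the largest rise and the pair with the largest fall among 1017 rising and 1480 falling loci whose D20 and D30 MROs did not overlap and whose mean was at least 3 raw counts at both timepoints. They were chosen by their values and serve as examples. XLOC_105850, which belonged to the rising run of 31 loci, had raw counts in the lowest, median and highest MRO of 0, 2.5 and 9 on D20 and 1, 17 and 39 on D22, then 75, 110.5 and 162 on D25 and 129, 196.5 and 299 on D30. Its level overlapped between D20 and D22 and between D25 and D30, and the early and late pairs of timepoints were apart. The log2 fold change was 5.76 ± 0.54 (SE, edgeR adjusted p = 6.05e-10) for D30 against D20, of which 2.53 ± 0.44 (adjusted p = 0.000254) lay between D22 and D25. The gene most like it was Slc17a7 (r = 0.969), the vesicular glutamate transporter of photoreceptor terminals, which went from 33.0 ± 3.75 to 194 ± 38.5 CPM between D20 and D30.

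XLOC_073818, with no called neighbour in number, had raw counts of 0, 3 and 8 in the lowest, median and highest MRO on D20 and 6, 19.5 and 76 on D22, then 45, 66 and 101 on D25 and 99, 163 and 245 on D30. At D20, 3 of the 6 MROs had no count. The log2 fold change was 5.36 ± 0.62 for D30 against D20 (edgeR adjusted p = 3.32e-08), and of the steps between neighbouring timepoints only D20 to D22 passed the threshold (2.88 ± 0.63, edgeR adjusted p = 0.00547). The gene most like it was listed without a symbol as ENSMUSG00000100259 (r = 0.954), followed by Serinc4 (r = 0.951) and Kdsr (r = 0.949), an enzyme of sphingolipid synthesis.

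XLOC_121433 had raw counts of 106, 152.5 and 398 in the lowest, median and highest MRO on D20 and 52, 104 and 139 on D22, then 8, 17 and 52 on D25 and 0, 3 and 8 on D30. The highest D20 value came from replicate 1, at 27.8 CPM with the next MRO at 12.7. The log2 fold change was -5.78 ± 0.55 for D30 against D20 (edgeR adjusted p = 7.90e-10), with -2.31 ± 0.44 from D22 to D25 (adjusted p = 0.000784) and -2.50 ± 0.57 from D25 to D30 (adjusted p = 0.00489). It was most like Pde3a (r = 0.967), a cyclic nucleotide phosphodiesterase, Tcf20 (r = 0.963), a transcriptional coregulator, and Mybpc1 (r = 0.962), a myosin-binding protein.

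XLOC_030882, in a run of 5 falling loci, had raw counts of 82, 123 and 226 in the lowest, median and highest MRO on D20 and 60, 100 and 172 on D22, then 31, 35 and 59 on D25 and 0, 2 and 10 on D30. All D25 MROs lay below all D22 MROs, and all D30 MROs below all D25 MROs. Its log2 fold change was -5.52 ± 0.43 for D30 against D20 (edgeR adjusted p = 1.23e-11), of which -3.56 ± 0.43 (adjusted p = 1.39e-06) fell between D25 and D30. The genes most like it were Gm10419 (r = 0.959), Ccdc60 (r = 0.956) and Mybl1 (r = 0.955). Within timepoints their r with this locus was only 0.295, 0.269 and 0.231.

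**Figure D5:**
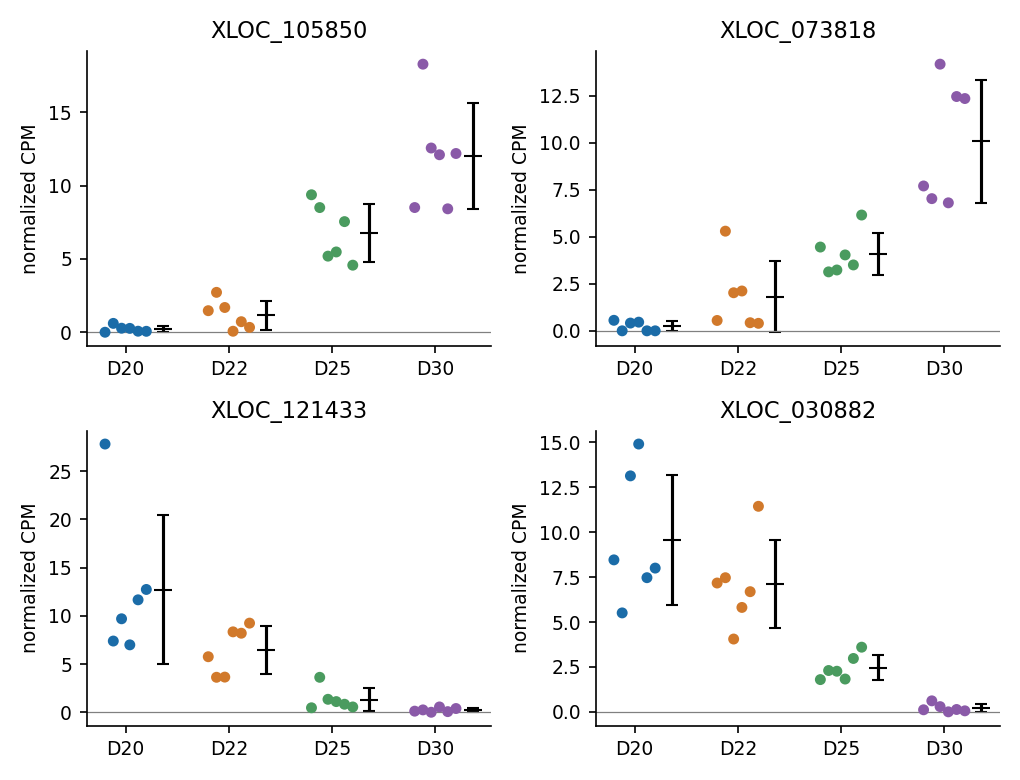
Normalized CPM (y axis) of the 4 example loci in each MRO (points, replicate 1 to 6 from left to right) at D20, D22, D25 and D30, with the mean and SD of 6 MROs as black marks. XLOC_105850 and XLOC_073818 rise from at most 0.60 and 0.56 CPM at D20 to at least 8.42 and 6.81 CPM at D30, and XLOC_121433 and XLOC_030882 fall to at most 0.55 and 0.61 CPM at D30.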

How the data were processed

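Total RNA from 24 individual MROs (4 timepoints, 6 each) was sequenced single-end. The authors trimmed adapters (cutadapt 1.5), aligned reads to GRCm38 with HISAT2, assembled transcripts with StringTie 1.3.3, merged the assemblies and deposited raw counts per annotated gene or assembled locus from HTSeq 0.6.1, as a table of whole-number counts per library. The strand setting of the counting is not given in the sources used here, so a locus opposite a known gene may share its reads.

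Features whose base mean reached 10 (DESeq2 size factors) were fitted together over the 24 libraries with edgeR 4.0.16 (R 4.3.3): TMM normalization, timepoint as the only term, quasi-likelihood tests, Benjamini-Hochberg adjustment over all 46949 features and a threshold of 0.01. Standard errors are the log2 fold change divided by the square root of F. CPM are counts scaled to a common size of the TMM-adjusted libraries. Likeness is Pearson's r of log2(CPM + 0.5) over 24 MROs with 10948 annotated genes. Gene symbols were matched by identifier for 46005 of 46603 annotated genes, and coordinates are from GENCODE M21 (GRCm38). Scripts were tested on simulated data. With only D30 changed, edgeR recovered falls less often than rises of the same fold, and the rises ended with higher mean counts. The loci, lists and tests were chosen with earlier results of these data known. Examples were the 2 largest rises and 2 largest falls under the rule given with them, and the 3 annotated genes most like each. The rule also sought genes peaking in an MRO that held over 50% of a locus, and no locus met it. Permutation tests of the summed share and of detection had been planned and are not quoted, since the loci were chosen by level. DESeq2 1.42.0, other normalizations and filters, a replicate block and leaving out libraries were tried as alternatives. Some marker lists that were computed are not reported here.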

Additional observations from a re-analysis of the deposited data

Results flagged for a closer look

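A library far from the other 5 of its timepoint was found in 8 of 68 groups of 6 MROs examined (Dixon's ratio above 0.625). Chance alone gives about 1 in 20 for independent groups of normal values. These groups share MROs and partly the same loci, and some were picked by their values, so the count is a description. D30 replicate 6 had the highest level for 9694 loci, with 4514 in the next MRO, and also the highest sum of the 13-locus falling run at D30, 10.4 CPM with the next at 4.52. D25 replicate 2 had 621 loci at 0, with 185 in the next MRO, and 28740.4 loci with a count at equal depth, with 29137 in the next. The same library had 3.63 CPM of XLOC_121433, with 1.34 in the next. D20 replicate 1 had 27.8 CPM of XLOC_121433, with 12.7 in the next. D22 replicate 2 had 5.30 CPM of XLOC_073818, with 2.12 in the next. D25 replicate 1 had 203 CPM of the 52-locus rising run, with 118 in the next.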

How the results depend on the processing

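DESeq2 called more loci higher and lower at every step, with 448 and 42 for D22 against D20, 408 and 591 for D25 against D22, and 168 and 364 for D30 against D25. Fitting only the compared timepoints gave 44 rises and 9 falls for D22 against D20 and 184 rises and 176 falls for D30 against D25, where the balance of 65 to 230 turned. Without the 6 libraries with over 1000 loci at 0, an alternative chosen after seeing the data, edgeR called 8 rises and 0 falls for D22 against D20 (DESeq2 with all libraries called 42 falls, and 604 falls had an unadjusted p below 0.05 in that fit), 227 rises and 226 falls for D25 against D22, 108 rises for D30 against D25 and 1605 falls for D30 against D20. With normalization from annotated genes only, the median log2 fold change was 0.15 for D22 against D20 and -0.25 for D25 against D22, beside 0.07 and -0.14 over all tested features. The cause of these shifts was not tested.

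Leaving out each MRO in turn gave 86 to 275 rises and 2 to 15 falls for D22 against D20, 116 to 241 and 177 to 419 for D25 against D22, 33 to 79 and 168 to 292 for D30 against D25, and 1729 to 2193 and 2283 to 2758 for D30 against D20. All 4 example loci kept their direction and stayed past the threshold under every alternative run for them. The directions of the summed share, of detection and of the loci's own medians did not turn under any alternative run. With DESeq2 size factors the loci's medians were -0.01 for D30 against D25 and -0.07 for D30 against D20, and those of all tested features turned to 0.03 and 0.02. Without the 6 libraries the share changed by 7.03%, -10.8%, -3.29% and -7.67% over the 4 comparisons. Replicate numbers only name the MROs: same-numbered MROs of different timepoints correlated from -0.0833 to 0.214 over 36 pairs, and the best partner had the same number in 15 of 72 comparisons. With a replicate block, 156, 188, 56 and 2037 loci were higher and 5, 262, 219 and 2513 lower over the 4 comparisons, each within 1.5 times the count without it. Depth limits loci with about 3 reads or fewer per library, which is 0.154 to 0.220 CPM.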
